A study of Zea mays with 12 samples.

Results

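Trehalose metabolism was followed through 3 maize genes, named here by their best hits in Arabidopsis: the trehalase gene TRE1 (GRMZM2G162690) and the trehalose 6-phosphate synthase genes TPS11 (GRMZM2G312521) and TPS1 (GRMZM2G001304). They are 3 of the 34423 genes with reads in any library, and all 3 passed the filter on low counts, which left 26089 genes to be tested. They were chosen because the study counted them among the genes that responded to drought in its organs, so their drought-versus-control values are the values that chose them. These values are given below as a description, with a standard error (SE) and no test.

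The plants were of the maize inbred line B104, which the sample labels write as inbred line 104. Young ears were harvested when plants had 9 collared leaves (V9); ear leaves and kernels were harvested 5 days after pollination (5DAP). Each organ came from well-watered control plants and from plants held for 5 days at low soil water in the field, with 2 libraries for each of the 6 groups and organs of several plants pooled in each library. Hence the ear differs from the other organs in plant age as well as in organ, and the drought fell at another stage. The p-values measure only the spread between such pooled libraries.

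Plants build trehalose in a short pathway. Trehalose 6-phosphate synthase (TPS) joins UDP-glucose and glucose 6-phosphate to trehalose 6-phosphate, trehalose 6-phosphate phosphatase (TPP) removes the phosphate, and trehalase splits trehalose into glucose. Trehalose itself is scarce in most plants, and trehalose 6-phosphate is best known as a signal of sucrose supply. In Arabidopsis, class I TPS proteins such as TPS1 make trehalose 6-phosphate, whereas most proteins of class II, to which TPS11 belongs, have no shown synthase activity.

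The study also assayed TRE1 and TPS11 by RT-PCR, and its primer pairs are shown because they mark the transcripts it singled out among these genes. No part of these primers is set off in capitals. They are designed oligonucleotides, and the values below come from sequencing reads over the whole gene model, not from these primers.
TRE1 forward: acacgagccaacaatgggat
TRE1 reverse: tattctccaccgcctccaga
TPS11 forward: atcgtgtgcccggcct
TPS11 reverse: ctgcagctaatcctacgcca

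Across the 12 libraries the summed counts lay between 3429219 in the second control ear leaf library and 5452598, and the next smallest library had 5117208. The floor of 3 counts equals 0.55 to 0.875 CPM, which is a count scaled to a common library total. This floor is without TMM factors, so it is not on the same scale as the levels below. Levels of 1 gene are given below in CPM adjusted with TMM factors, which align the bulk of the genes between libraries, and levels of different genes are compared only in FPKM, which also divides by gene length. The TMM factors ranged from 0.648 to 1.26. Without them the median log2 fold change of all genes moved by 0.31 for drought in ear leaves, by -0.20 for drought in kernels and by 0.06 for drought in ears. The 2 libraries of a group differed by a chi-square per gene of 1.27 to 1.37 for ears and for both droughted 5DAP groups, whereas watered ear leaves had 3.98 and watered kernels 3.04. The organ labels were checked with marker genes. The sucrose synthase gene sh1, also chosen as a kernel marker, did not separate the organs. It averaged 408 CPM in the control kernel against 652 CPM in the control ear. Under drought it averaged 1745 CPM in the kernel against 1883 CPM in the ear leaf. The C4 phosphoenolpyruvate carboxylase gene pep1 (GRMZM2G083841) averaged at least 1524 CPM in ear leaf groups and at most 37 CPM in the others, the meristem gene kn1 (GRMZM2G017087) averaged 208 to 271 CPM in ear groups and at most 24.6 CPM in the others, and the cell wall invertase gene mn1 (GRMZM2G119689) averaged 15.8 to 73.6 CPM in kernel groups and under 1 CPM in the others.

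TRE1, the trehalase that ends the pathway, was higher in the drought libraries of every organ. In the ear it had 30 and 17 counts in the control libraries and 256 and 252 under drought. In the ear leaf it had 75 and 56 counts in the control and 316 and 295 under drought. In the kernel it had 96 and 98 counts in the control and 285 and 263 under drought. The 2 drought libraries of each organ lay above both control libraries, and the lowest values of all were those of the control ear. The level went from 3.79 ± 1.42 to 39.6 ± 0.58 CPM in the ear (mean ± SD, n = 2), a 10.3-fold difference. It went from 22.8 ± 2.22 to 68.2 ± 2.35 CPM in the ear leaf, a 3.02-fold difference, and from 15.6 ± 0.11 to 51.4 ± 3.09 CPM in the kernel, a 3.3-fold difference.

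For ear, ear leaf and kernel in turn, TRE1 had log2 fold changes of 3.37 (SE 0.21), 1.60 (SE 0.15) and 1.72 (SE 0.13). The log2 fold change minus that of the ear was -1.78 (SE 0.26) for the ear leaf and -1.65 (SE 0.25) for the kernel, and kernel minus ear leaf was 0.13 (SE 0.20). The ear value rests on 17 to 30 control counts and was 3.82 without the first and 3.04 without the second control library. The gap between the ear and the other organs was smaller in droughted than in watered plants, whose values are given further on. In droughted plants the ear leaf exceeded the ear by 0.79 (SE 0.11) in log2 CPM and the kernel exceeded it by 0.38 (SE 0.11). The means of droughted ears, ear leaves and kernels were 39.6, 68.2 and 51.4 CPM. In FPKM, which carries no TMM factors, they lay closer together at 25.3, 29.2 and 25.9.

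TPS11, a class II TPS, was also higher under drought in every organ, with its smallest change in the ear, where that of TRE1 was largest. In the ear it had 101 and 84 counts in the control libraries and 310 and 296 under drought. In the ear leaf it had 155 and 93 counts in the control and 950 and 991 under drought. In the kernel it had 151 and 139 counts in the control and 2409 and 2523 under drought. The drought libraries again lay above the control libraries in each organ, and the droughted kernel stood above every other group. The level went from 15 ± 1.69 to 47.2 ± 1.71 CPM in the ear (mean ± SD, n = 2), from 42.3 ± 2.41 to 217 ± 9.56 CPM in the ear leaf and from 23.3 ± 1.86 to 463 ± 13.6 CPM in the kernel. The corresponding folds were 3.15, 5.1 and 19.9. On the log2 scale these were 1.66 (SE 0.12), 2.35 (SE 0.10) and 4.31 (SE 0.10). The ear leaf value minus that of the ear was 0.69 (SE 0.16), kernel minus ear was 2.66 (SE 0.15) and kernel minus ear leaf was 1.96 (SE 0.14).

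TPS1, the class I synthase homolog, was the member whose direction differed between organs. In the ear it had 78 and 65 counts in the control libraries and 141 and 138 under drought. In the ear leaf it had 228 and 161 counts in the control and 9 and 7 under drought. In the kernel it had 229 and 313 counts in the control and 23 and 16 under drought. Drought libraries lay above control libraries for the ear, and below them for both 5DAP organs. The level went from 11.6 ± 1.29 to 21.7 ± 0.407 CPM in the ear (mean ± SD, n = 2). It went from 67.4 ± 3.91 to 1.78 ± 0.291 CPM in the ear leaf, 37.1-fold lower, and from 43.4 ± 8.59 to 3.66 ± 0.941 CPM in the kernel, 11.8-fold lower. For ear, ear leaf and kernel in turn, the log2 fold changes of TPS1 were 0.91 (SE 0.17), -5.21 (SE 0.37) and -3.56 (SE 0.25). The droughted ear leaf, with 7 to 9 counts, was only a few counts above the floor of 3, so the size of its change is the least precise of the 9.

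**Figure D1:**
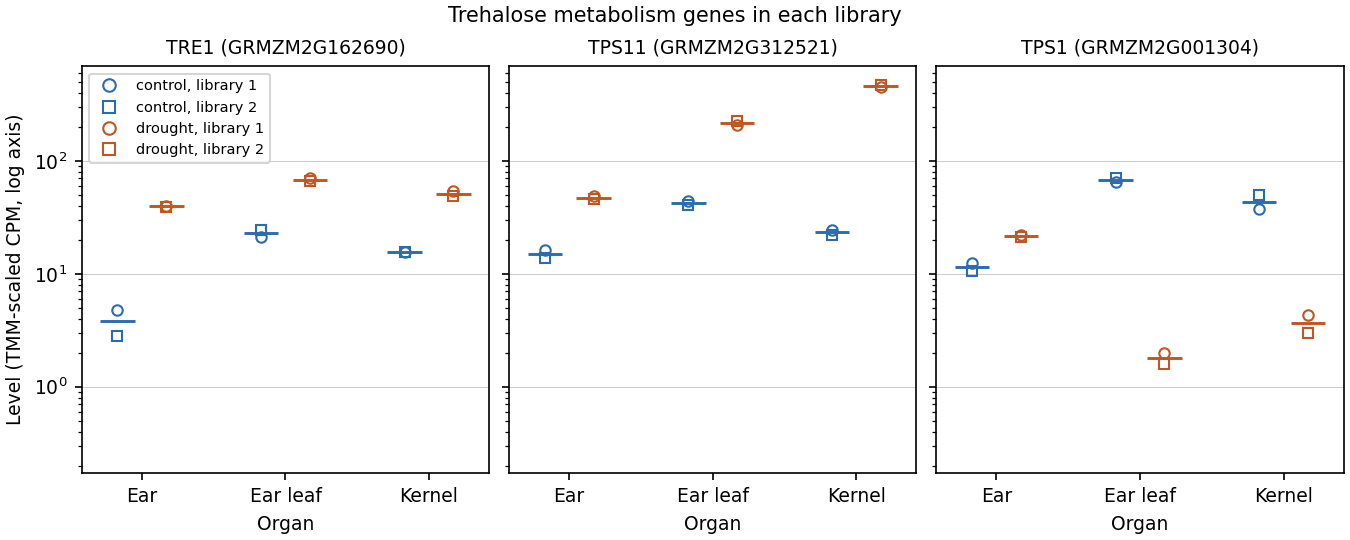
Levels of TRE1, TPS11 and TPS1 in each of the 12 libraries, in TMM-scaled CPM on a log axis; circles and squares are the 2 libraries of a group, bars their mean, blue control and orange drought. TRE1 and TPS11 were higher under drought in each organ, and TPS1 was higher in the droughted ear (21.7 CPM) but lower, at 1.78 and 3.66 CPM, in the droughted ear leaf and kernel.

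Genes outside the 3 members were called upregulated or downregulated by the study's criteria, an adjusted p under 0.001 and a log2 fold change of at least 1 in size. Without any p, the log2 fold change reached this size for TRE1 and TPS11 in the 3 organs and for TPS1 in both 5DAP organs but not in the ear. Of all genes tested, 3.95% were called upregulated and 3.29% downregulated in ears, 7.13% and 9.19% in ear leaves, and 13.7% and 13.5% in kernels. Since the same contrasts chose the members, nothing is read from their count. In bulk samples such as these, fewer cells of a type and less RNA per cell cannot be told apart. Marker levels moved with drought as well. In the ear leaf pep1 went from 28781 to 1524 CPM and the Rubisco small subunit gene ssu1 (GRMZM2G098520) from 2964 to 633 CPM, and in the kernel mn1 went from 73.6 to 15.8 CPM. The sucrose synthase gene sh1 (GRMZM2G089713) was not confined to the kernel, with 652 and 381 CPM in the control and droughted ear, 185 and 1883 CPM in the ear leaf and 408 and 1745 CPM in the kernel. The part of such shifts in the members' values was not tested.

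The balance between the 3 genes, set per length in FPKM, was inverted between watered and droughted plants at 5DAP. TPS1 had the highest FPKM of the 3 in each of the 6 control libraries. It took 47.0% and 50.5% of their summed FPKM in control ears, 57.5% and 60.0% in control ear leaves, and 55.7% and 63.5% in control kernels. TPS11 and TRE1 were close to each other in the control ear leaf (7.97 and 7.57 FPKM of TPS11, 7.5 and 8.16 FPKM of TRE1), and their order differed between its 2 libraries. Under drought TPS1 was the lowest of the 3 in each of the 6 libraries. Its share was 24.5% and 24.8% in ears, 1.03% and 0.827% in ear leaves, and 1.39% and 0.958% in kernels.

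TRE1 led in the droughted ear, with 45.5% and 45.6% of the summed FPKM. TPS11 led in the droughted ear leaf, with 61.1% and 64.4%, and in the droughted kernel, with 81.5% and 84.0%. The ratio of TPS11 to TPS1 in FPKM was 0.72 and 0.725 in the control ear and 1.23 and 1.2 in the droughted ear. It was 0.38 and 0.32 in the control ear leaf against 59.5 and 77.8 under drought. It was 0.366 and 0.248 in the control kernel against 58.8 and 87.7 under drought. The ratio was thus below 1 in every control library and above 1 in every drought library, with the droughted ear far closer to 1 than the other droughted organs.

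**Figure D2:**
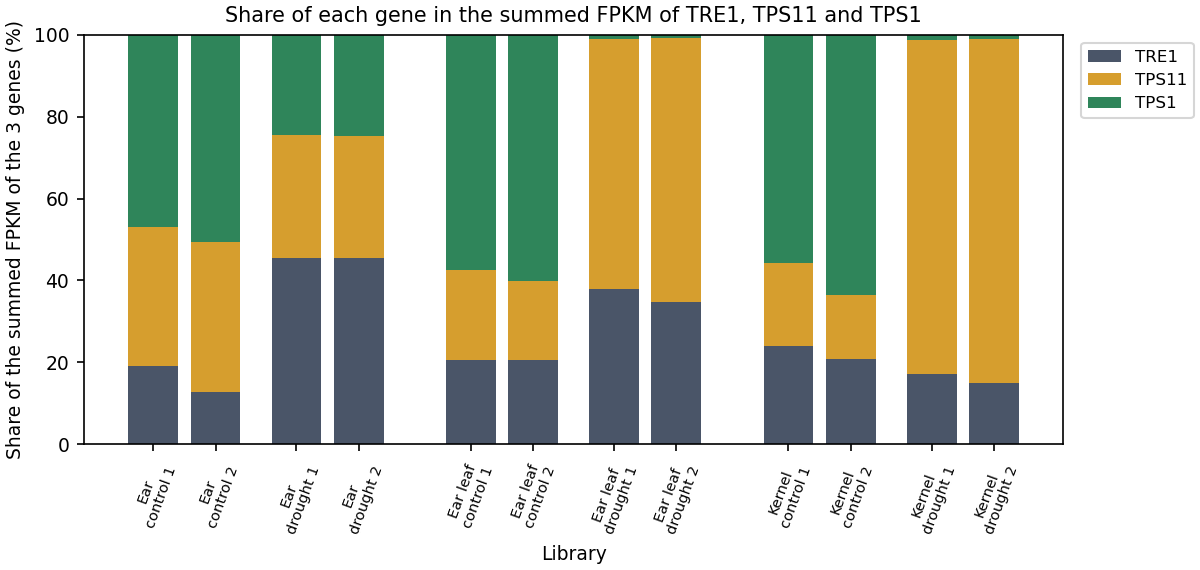
Share of TRE1, TPS11 and TPS1 in their summed FPKM (%), 1 bar for each library, grouped by organ and treatment. TPS1 took 47.0% to 63.5% in control libraries, 24.5% and 24.8% in droughted ears and 0.827% to 1.39% in droughted ear leaves and kernels.

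The watered organs gave a comparison that did not enter the choice of the members, although their libraries are also the controls of the contrasts that did. All 3 genes were lower in the V9 ear than in the 5DAP ear leaf. TRE1 was higher in the ear leaf by 2.56 on the log2 scale (SE 0.24, adjusted p = 3.1e-11, edgeR), TPS11 by 1.50 (SE 0.13, adjusted p = 4.3e-11, edgeR) and TPS1 by 2.53 (SE 0.17, adjusted p = 4.1e-14, edgeR). Between these organs 48.7% of all genes tested met the criteria in either direction. The kernel also exceeded the ear for TRE1, by 2.03 (SE 0.23, adjusted p = 2.4e-09, edgeR), and for TPS1, by 1.91 (SE 0.16, adjusted p = 2.7e-11, edgeR), where 24.0% of all genes met the criteria. TPS11 was higher in the kernel than in the ear by 0.63 (SE 0.13, adjusted p = 1.1e-04, edgeR), less than the required fold.

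Between kernel and ear leaf, where 44.9% of all genes met the criteria, none of the 3 members did. The differences were -0.54 for TRE1 (SE 0.17, adjusted p = 6.0e-03, edgeR), -0.87 for TPS11 (SE 0.12, adjusted p = 4.0e-07, edgeR) and -0.63 for TPS1 (SE 0.13, adjusted p = 1.3e-04, edgeR). All 3 passed an unadjusted p of 0.05, and none met the criteria with DESeq2 or limma. Comparisons with the watered ear leaf depended on the scaling, since leaving out the TMM factors moved the median of all genes by -0.84 between ear leaf and ear and by 0.85 between kernel and ear leaf. With library size alone TPS11 was higher in the ear leaf than in the ear by 0.66 (adjusted p = 3.3e-05, edgeR) and no longer met the criteria, and the kernel lay above the ear leaf for TRE1 (0.32) and TPS1 (0.23). TRE1 and TPS1 remained past the criteria in the ear leaf and the kernel against the ear with either scaling.

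RefSeq joins TPS1 with another gene model. GRMZM2G001304 and the other TPS1 homolog GRMZM2G133966, counted as separate gene models in the deposited values, are both synonyms of a single RefSeq gene, LOC100381759, in the Zm-B73-REFERENCE-NAM-5.0 annotation. GRMZM2G133966 had 46 and 45 counts in the control ear and 60 and 57 under drought. It had 101 and 51 counts in the control ear leaf and 4 and 1 under drought, and 127 and 126 counts in the control kernel and 11 and 11 under drought. Its drought libraries thus lay above the controls for the ear and below them for both 5DAP organs, as those of GRMZM2G001304 did. Its log2 fold changes were 0.31 (SE 0.22), -5.48 (SE 0.62) and -3.28 (SE 0.32) in ear, ear leaf and kernel. The ear change did not pass (adjusted p = 0.30, edgeR). The ear leaf value rests on 4 and 1 counts and was -6.69 without the first and -4.83 without the second drought library. Whether both models are parts of a single gene was not tested here, and since most of their expected counts carry fractions, reads may have been shared out between them or with other models. Among 26088 other genes it was also the one most correlated with TPS1 over the 12 libraries (r = 0.9836, log2(CPM + 1)). With the counts of both models added up, an alternative chosen after the values were seen, the log2 fold changes of ear, ear leaf and kernel were 0.70 (SE 0.13), -5.29 (SE 0.31) and -3.47 (SE 0.19).

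**Figure D3:**
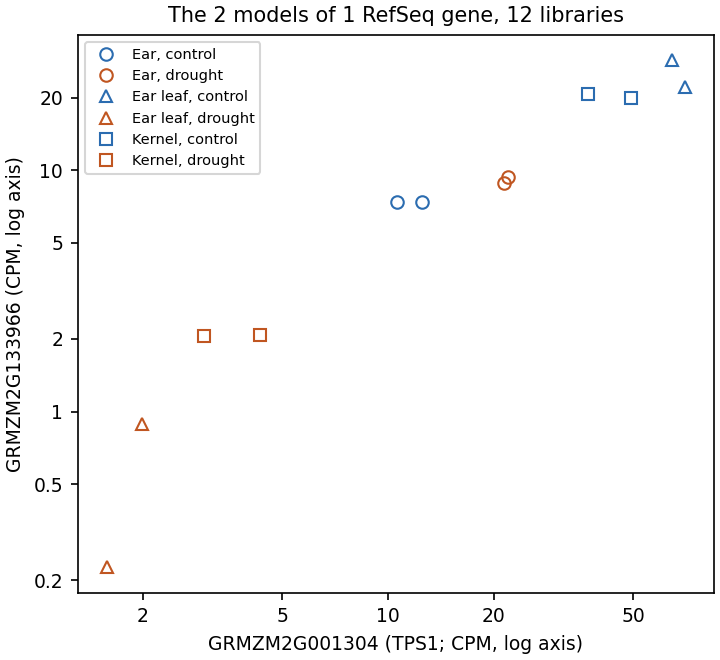
Level of GRMZM2G133966 against that of GRMZM2G001304 (TPS1) in the 12 libraries, in CPM on log axes; the shape gives the organ and the colour the treatment. The droughted ear leaf and kernel libraries lie lowest on both axes and the watered ear leaf and kernel libraries highest.

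Besides the members, 15 gene models of the pathway were described. They come from the study's tables of drought-responsive genes of the ear leaf and the kernel. Each gene there with a TPS or TPP as its Arabidopsis best hit was taken. Their counts and p-values in the ear leaf and the kernel, here and below, are therefore not independent evidence of a change or its direction. GRMZM2G133966 is 1 of them. In the ear, from whose table none was taken, 2 were upregulated and 0 downregulated by edgeR (at an unadjusted p under 0.05, 4 and 6; by DESeq2, 2 and 0). For ear leaves 7 were upregulated and 2 downregulated, and for kernels 9 and 4 (by DESeq2, 9 and 3). Of all genes tested, 3.95% were upregulated and 3.29% downregulated in ears, 7.13% and 9.19% in ear leaves, and 13.7% and 13.5% in kernels. Their median log2 fold changes were -0.17, 0.29 and 2.19 for ear, ear leaf and kernel, beside medians over all genes of -0.01, -0.03 and 0.00. Of the 15, 6 were upregulated in both ear leaf and kernel. The share of all genes upregulated in both organs is not given here, so nothing is read from this count.

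The 7 listed class II TPS genes came from drought calls in the ear leaf and the kernel, so counts there share that choice. Class II genes outside the study's tables were not examined. Of the 7, 6 were upregulated in ear leaves and 7 in kernels, where 7.13% and 13.7% of all genes were. For the ear 0 passed in either direction by edgeR or DESeq2 (at an unadjusted p under 0.05, 2 were higher and 4 lower). For ear, ear leaf and kernel, the class II medians were -0.31, 2.12 and 2.35 on the log2 scale. The gene with the same best hit as TPS11 is GRMZM2G122231, and RefSeq gives both the synonym TPS9. It had 163 and 177 counts in the control ear and 305 and 323 under drought, 115 and 72 in the control ear leaf and 1336 and 1306 under drought, and 111 and 109 in the control kernel and 2331 and 2230 under drought. Its log2 fold change was 0.83 for the ear (SE 0.10, adjusted p = 1.1e-07, edgeR), below the required fold, 3.20 for the ear leaf (SE 0.11, adjusted p = 2.0e-20) and 4.60 for the kernel (SE 0.10, adjusted p = 2.2e-24). It therefore showed the same order of organs as TPS11. Expected counts of TPS11 carry fractions in the deposited values, so reads were shared out between models, and how the 2 homologs divide such reads is uncertain.

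Other class II genes had large values in the kernel too. The TPS6 homolog GRMZM2G019183 went from 406 and 399 to 3707 and 3550 counts there (log2 fold change 3.40, SE 0.08, adjusted p = 3.4e-23, edgeR). The TPS7 homolog GRMZM2G118462 was the class II gene that did not pass in the ear leaf. It had 346 and 171 counts in the control ear leaf and 341 and 331 under drought (log2 fold change -0.23, SE 0.11, adjusted p = 0.11, edgeR), but 200 and 222 against 904 and 937 in the kernel (2.35, SE 0.11, adjusted p = 7.4e-17). The TPS9 homolog GRMZM2G527891 went from 104 and 164 to 918 and 930 counts in the kernel (3.01, SE 0.12, adjusted p = 3.0e-18) and was upregulated in the ear leaf by 2.46 (SE 0.13, adjusted p = 1.7e-15). The second TPS7 homolog, GRMZM2G123277, was upregulated by 2.19 in the kernel (SE 0.13, adjusted p = 5.4e-15) and by 1.37 in the ear leaf (SE 0.17, adjusted p = 7.6e-08). The TPS9 homolog GRMZM2G008226 and the TPS10 homolog GRMZM2G366659 were lower in the droughted ear by less than the required fold (-0.86, adjusted p = 5.2e-06, and -0.65, adjusted p = 1.9e-04, edgeR).

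The other class I gene, the TPS1 homolog GRMZM2G068943, is a separate RefSeq gene. It had 116 and 66 counts in the control ear leaf and 21 and 21 under drought (log2 fold change -2.73, SE 0.23, adjusted p = 5.2e-12, edgeR). In the kernel it had 368 and 420 counts in the control and 211 and 201 under drought (-0.71, SE 0.11, adjusted p = 1.8e-06), less than the required fold. In the ear, with 114 and 104 against 96 and 105 counts, it did not pass (-0.17, SE 0.14, adjusted p = 0.38). It was downregulated in the ear leaf as TPS1 was, and in the droughted kernel it kept 11.69 and 11.09 FPKM where TPS1 had 2.23 and 1.56 FPKM.

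The TPP genes, which act after TPS, moved in both directions. Of the 6 listed, 2 were upregulated in ears, where 3.95% of all genes were, and 1 in ear leaves, where 7.13% were. In kernels 2 were upregulated and 3 downregulated (by DESeq2, 2 and 2), where 13.7% and 13.5% of all genes were. The counts in ear leaves and kernels share the choice of the list by drought calls there. GRMZM2G174396 (best hit AT4G39770) had 8 and 6 counts in the control ear and 127 and 145 under drought (log2 fold change 4.20, SE 0.38, adjusted p = 1.1e-12, edgeR). It was also upregulated in the kernel, from 41 and 31 to 163 and 171 counts (2.44, SE 0.20, adjusted p = 1.1e-11). In the ear leaf it averaged 3.6 CPM in the control and 1.79 CPM under drought and did not pass (-0.94, SE 0.45, adjusted p = 0.10). GRMZM2G347280, with the same best hit, went from 85 and 53 to 498 and 496 counts in the kernel (3.07, SE 0.16, adjusted p = 1.1e-16). In the ear it barely met the criteria (1.04, SE 0.23, adjusted p = 6.1e-04) and lost them without any of the 4 ear libraries, which left 1 upregulated gene there. The TPPA homolog GRMZM2G112830 was the gene of the list called in opposite directions. It went from 28 and 26 to 91 and 120 counts in the ear leaf (1.33, SE 0.27, adjusted p = 1.3e-04) and from 54 and 66 to 12 and 10 counts in the kernel (-2.21, SE 0.38, adjusted p = 2.5e-06). Its ear leaf call was lost without the first control library (1.06) or the second drought library (1.11), and with limma on log2(FPKM + 0.1) (1.60).

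GRMZM2G178546 (best hit AT4G22590) went from 67 and 85 to 5 and 14 counts in the kernel (-2.76, SE 0.39, adjusted p = 3.6e-08, edgeR), and its value was -2.20 without the first and -3.66 without the second drought library. GRMZM2G055150 (best hit AT2G22190) had reads mainly in the control kernel, with 43 and 30 counts there, 1 and 4 in the droughted kernel, and 0 in all ear leaf libraries. Its call in the kernel was lost with DESeq2 (-3.70), without the first control library (-3.27) and without the first drought library (-2.93), and its value was -4.79 without the second drought library. GRMZM6G738249 (best hit AT5G65140) passed in no organ and had 3 and 3 counts in the control ear and 0 in both droughted ear libraries, so its plotted ear value is set by the fit and is no bound. The TPP gene ra3 (GRMZM2G014729), which limits branching of the maize inflorescence, was not taken from the drought tables. It had 35 and 32 counts in the control ear and 8 and 13 under drought (log2 fold change -1.71, adjusted p = 4.4e-03, edgeR), which misses the criteria, and at most 4 counts in the other organs.

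**Figure D4:**
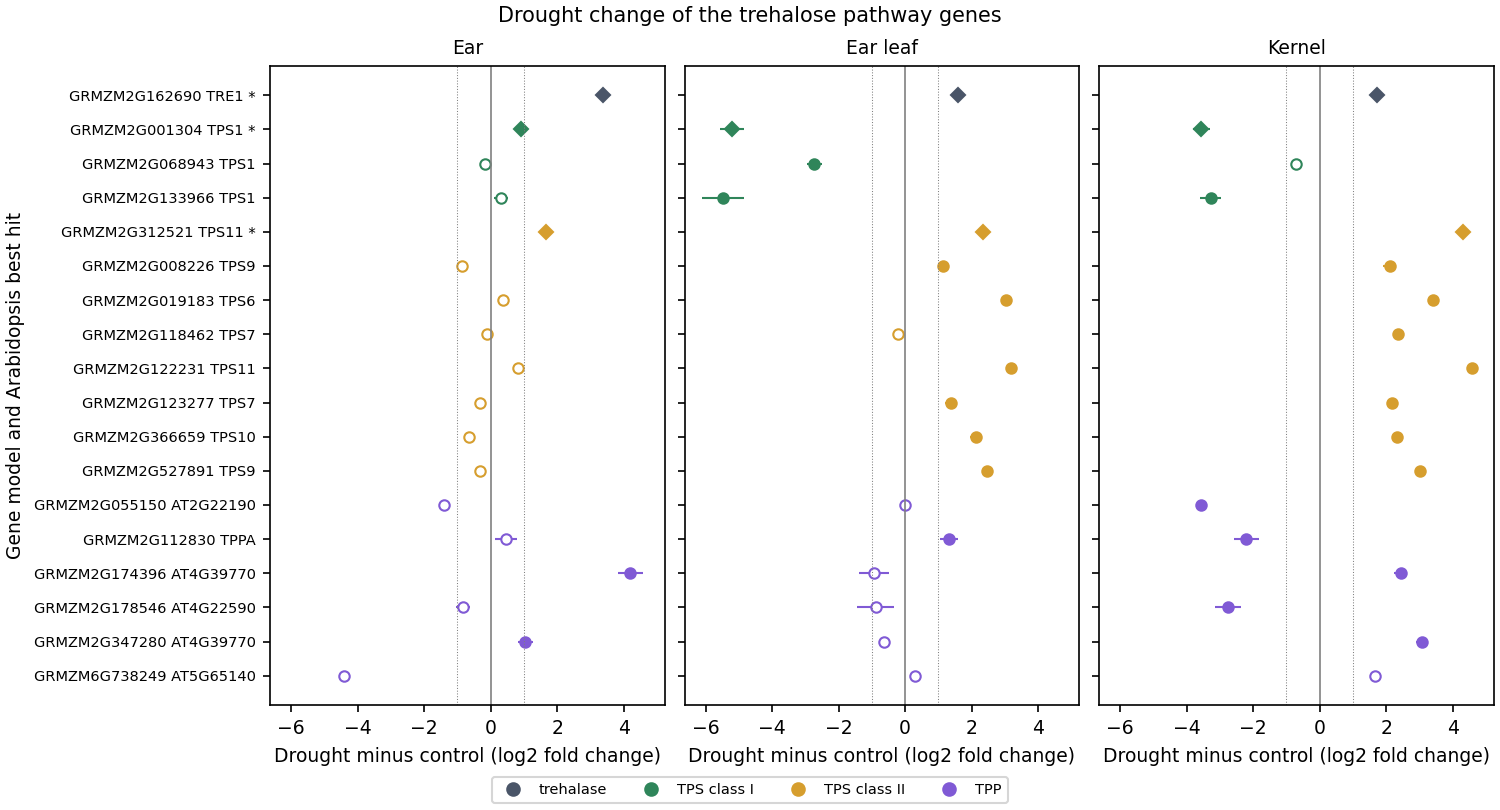
Drought-versus-control log2 fold change in ear, ear leaf and kernel for the 3 members (diamonds, starred) and the 15 other gene models (circles), coloured by class; lines are ± 1 SE where the fit gives one, filled circles met the criteria, members have no test and dotted lines mark a log2 fold change of 1 and -1. The 7 class II genes besides TPS11 lie between -0.86 and 0.83 in the ear (median -0.31), with medians of 2.12 and 2.35 in ear leaf and kernel, and class I genes lie to the left in the ear leaf.

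The difference of the drought change between organs was tested for the 15 gene models. At an adjusted p under 0.05, where 35.9%, 39.3% and 45.8% of all genes passed, the change differed between ear leaf and ear for 11 of 15, between kernel and ear for 14 and between kernel and ear leaf for 11. Both counts against the ear include GRMZM6G738249, which had 3 and 3 control and 0 and 0 drought counts in the ear. Every count includes GRMZM2G133966, of the same RefSeq gene as TPS1. Since the list was drawn from calls in the ear leaf and the kernel, these counts and the p-values below share that choice. Compared with the ear, the change was more positive in kernels for all 7 class II genes and in ear leaves for 6. The shares of all genes above cover both directions together, so they are no baseline for these counts by direction. For GRMZM2G122231 the change was larger than in the ear by 2.37 in the ear leaf (SE 0.14, adjusted p = 2.5e-13, edgeR) and by 3.77 in the kernel (SE 0.14, adjusted p = 1.1e-17). TPS11, the member of this class, had 0.69 and 2.66 for the same differences. Of the TPP genes, GRMZM2G174396 had a lower change in the ear leaf than in the ear (log2 difference -5.14, SE 0.59, adjusted p = 5.2e-08, edgeR).

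Genes with the most similar pattern over the 12 libraries were picked by Pearson's r of log2(CPM + 1), as a description. The libraries share organ and treatment, so many genes correlate. For TRE1 they were GRMZM2G000812 (r = 0.9584), GRMZM2G139512 (r = 0.9572) and GRMZM2G047178 (r = 0.9533). GRMZM2G000812 averaged 3.72, 36.2 and 31.4 CPM in the control ear, ear leaf and kernel and 42.8, 226 and 169 CPM under drought, and so shared with TRE1 the low control ear. For TPS11 they were GRMZM2G361605 (r = 0.9890), GRMZM2G309731 (r = 0.9880) and GRMZM2G027875 (r = 0.9864). GRMZM2G309731 averaged 0.568, 2.74 and 0.721 CPM in the control organs and 4.83, 21.8 and 69 CPM under drought, with the droughted kernel highest as for TPS11. For TPS1 they were GRMZM2G133966, described above, GRMZM2G062024 (r = 0.9650) and GRMZM2G127080 (r = 0.9490). Among the members r was 0.8291 between TRE1 and TPS11, -0.4156 between TRE1 and TPS1 and -0.7177 between TPS11 and TPS1.

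The homolog of NAC002/ATAF1 (GRMZM2G014653), a NAC transcription factor known in Arabidopsis to activate trehalase, was set beside TRE1. It went from 5.1 ± 0.201 to 27.4 ± 1.42 CPM in the ear (mean ± SD, n = 2), from 258 ± 4.56 to 633 ± 1.57 CPM in the ear leaf and from 20.1 ± 2.48 to 368 ± 3.32 CPM in the kernel. Its log2 fold change was 2.42 (SE 0.16), 1.29 (SE 0.07) and 4.20 (SE 0.09) in these organs. TRE1 and this gene were thus both higher under drought in each organ, but the largest change of TRE1 was in the ear and that of the NAC gene in the kernel.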

How the data were processed

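RNA of 12 pooled-plant libraries was enriched for mRNA and sequenced on an Illumina instrument by a company, which also did the primary processing. The deposited expected counts are estimated reads per gene without normalization, and some are fractional because reads were shared out. The deposited FPKM values were made from these estimates by dividing by gene length and mapped reads. The aligner, counting program and genome build are not given in the sources used here.

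Whole numbers were made of the expected counts by rounding, and a gene not listed in a library was set to 0. Counts were scaled with TMM, filtered with filterByExpr and fitted with edgeR 4.0.16 (R 4.3.3) as 1 model of 6 groups. The quasi-likelihood F test was used with Benjamini-Hochberg adjustment over 26089 genes. A gene was called at an adjusted p under 0.001 with a log2 fold change of 1 or more in size, and differences between organs at an adjusted p under 0.05. Standard errors came from the fitted model, which has 6 residual and 20 prior degrees of freedom. The procedure was tested on simulated data. Depth and its floor of 3 counts cover counting error only.

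The members and lists were chosen with earlier results of these data known. Genes named are the members, pathway genes that met the criteria in any organ, 3 most similar genes for each member and the NAC002 homolog; ra3, the organ markers and GRMZM6G738249 were named besides these. The pathway list came from best hits in the study's tables, whose fold changes were not used, because 0 entries of the RefSeq table name trehalose or trehalase. Of 18 members and list genes 13 had a RefSeq entry. Alternatives were DESeq2 1.42.0, limma 3.58.1 (trended variance) on FPKM with pseudocounts of 1 or 0.1 before taking log2, library size without TMM, other filters, fewer groups in the fit, a replicate block and leaving out each library. Figures were drawn with matplotlib 3.10.9.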

Additional observations from a re-analysis of the deposited data

Results flagged for a closer look

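The drought change of TPS1 went in opposite directions in different organs. Both droughted ear libraries lay above both control ear libraries, and both droughted libraries of the ear leaf and of the kernel lay below their controls. The log2 fold change of TPS1 differed by -6.12 between ear leaf and ear and by -4.47 between kernel and ear. The ear change itself was 0.91 (SE 0.17), less than the required fold, and GRMZM2G133966 of the same RefSeq gene had 0.31 (SE 0.22) there. The differences between organs were not tested for TPS1, because the same contrasts chose the gene.

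The TPPA homolog GRMZM2G112830 was upregulated in the ear leaf and downregulated in the kernel. The list was drawn from drought calls in these organs, so the p-value below is not independent evidence. The difference of its log2 fold change, kernel minus ear leaf, was -3.54 (SE 0.47, adjusted p = 1.0e-07, edgeR), with both droughted libraries higher than both controls in the ear leaf and lower in the kernel. Its ear leaf call was lost without the first control library (1.06), without the second drought library (1.11) and with limma on log2(FPKM + 0.1) (1.60).

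For the 15 other gene models of the pathway, the drought change was compared between organs at an adjusted p under 0.05. It differed between kernel and ear for 14, between ear leaf and ear for 11 and between kernel and ear leaf for 11. Of all genes tested, 39.3%, 35.9% and 45.8% passed these comparisons in turn. Both counts against the ear include GRMZM6G738249, whose ear change rests on 3 and 3 control counts. Every count includes GRMZM2G133966, of the same RefSeq gene as TPS1. The list was drawn from drought calls in the ear leaf and the kernel, so its counts share that choice. These tests treat the ear leaf and kernel libraries as independent, and whether they came from the same plants is not given in the sources used here.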

How the results depend on the processing

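With 2 libraries per group, a group left with 1 library was assumed to vary like the others. Of 626 values recomputed, 581 counted as unchanged. Drought changes of members had to stay within the replicate spread, and other log2 fold changes had to keep direction and call. Counts of genes only had to stay near the main count, so that 10 in place of 9 was unchanged. None of the drought changes of a member changed sign. Same-numbered control and drought libraries of an organ did not deviate together, with correlations of -0.00 to 0.01. Same-numbered libraries of different organs, such as ear leaf and kernel, were not compared in this way. Under the replicate block the drought log2 fold change of TRE1 in the ear was 3.37, as without it. Of the 15 other gene models, 10 were then upregulated in the kernel in place of 9.

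Without TMM factors the drought log2 fold changes of the members were -4.87 for TPS1, 2.69 for TPS11 and 1.94 for TRE1 in the ear leaf, and 4.11 for TPS11 and 1.52 for TRE1 in the kernel. Watered TPS11, ear leaf against ear, was 0.66, below the required fold, and the watered kernel against the ear leaf reversed to 0.32 for TRE1 and 0.23 for TPS1. The shift of the median of all genes with this scaling is given above.

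With limma on log2(FPKM + 0.1) and log2(FPKM + 1), the ear leaf values were -4.73 and -3.74 for TPS1, 2.68 and 2.55 for TPS11 and 1.89 and 1.77 for TRE1. The kernel values were 4.10 and 3.95 for TPS11 and 1.42 and 1.34 for TRE1. Watered TPS11, ear leaf against ear, was 0.65 and 0.57, and watered kernel against ear leaf reversed to 0.29 and 0.26 for TRE1 and 0.20 and 0.19 for TPS1. Of the 15 other models 1 was then upregulated in the ear with either pseudocount, and 1 downregulated with the smaller. Adding both TPS1 models gave 0.70 in the ear.

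With an ear library left out, the ear value of the TPP gene GRMZM2G347280, upregulated there with all libraries, lay between 0.89 and 1.20. In the ear TRE1 lay between 3.04 and 3.82, TPS11 between 1.54 and 1.77 and TPS1 between 0.80 and 1.03. TPS1 lay between -5.38 and -5.05 in the ear leaf and between -3.84 and -3.32 in the kernel. Differences under 3 counts cannot be seen at this depth. For the differences between organs, whose alternatives were chosen after the data were seen, leaving out a library gave 13 to 14 genes between kernel and ear, 10 to 11 between ear leaf and ear and 9 to 11 between kernel and ear leaf.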
